A study of Mus musculus with 5 samples.

Results

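The chromatin and DNA methylation enzymes of adult mouse cardiomyocytes were compared between cells given 4 reprogramming factors and cells given a control vector. Members were protein-coding rows of the deposited gene table named as histone deacetylases (Hdac), sirtuins (Sirt), lysine demethylases (Kdm), lysine acetyltransferases (Kat), SET-domain proteins (Setd), DNA methyltransferases (Dnmt), SWI/SNF-related remodelling proteins (Smarc) or numbered chromodomain helicases (Chd). Ezh1, Ezh2, Eed, Suz12, Tet1, Tet2 and Tet3 were added by name. The names matched 80 rows, and 3 katanin genes, which are microtubule-severing proteins that share the Kat letters, were left out. This gave 77 members of 12446 listed genes. They carried 76 symbols, because Hdac4 was listed under 2 Ensembl identifiers.

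RNA was sequenced in bulk from cardiomyocytes isolated from hearts of male C57BL/6 mice, injected through the thoracic cavity at 8 weeks and aged 12 to 14 weeks per the labels. OSKM-CMs (3 libraries, replicates 1, 2 and 3) received 4 adeno-associated virus (AAV) vectors together, which encoded tagged Klf4-HA, Myc-V5, Oct4-His6 and Sox2-Flag. Control-CMs (2 libraries, replicates 3 and 5) received 1 vector for blue fluorescent protein, at the summed dose of the factor vectors. In both groups the cTnT promoter, which is active in cardiomyocytes, drove the vector. Nothing in the labels ties a library to its own mouse, so the p-values cover the spread among these libraries alone, and that spread may be technical. Reads over the listed genes totalled 2691796 to 2780751 in OSKM-CMs and 3519628 to 3861805 in Control-CMs, and 3 reads, the limit that a count of 0 allows, equal 0.777 to 1.11 CPM. The label check held: Pou5f1 (Oct4) had 262 to 344 reads in each OSKM-CMs library and 0 in both controls, and Sox2 had 254 to 391 against 0. The cardiomyocyte label was checked against 12 markers, all detected in every library. Their summed level was 23290 to 27460 in OSKM-CMs and 44790 to 48850 in Control-CMs.

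Chromatin enzymes add or remove chemical groups on histone tails and on DNA, or use ATP to move nucleosomes. Acetylation of histones generally goes with active transcription and is removed by deacetylases, while methyl groups act by position, with some marking active genes and others silent ones. DNA methyltransferases and the Tet dioxygenases write and oxidise methylcytosine. In the heart, class IIa deacetylases are known for holding back MEF2-dependent growth genes, and the BRG1 and BRM remodelling complexes for setting fetal and adult gene programmes.

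Of the tested members, 4 rose and 4 fell in OSKM-CMs, led by a fall of the deacetylase gene Hdac4. Levels are given as scaled RPKM, reads relative to the length of the gene and the library total, rescaled between libraries by the trimmed mean of M values (TMM). Fold changes are log2 differences of scaled RPKM plus 1, OSKM-CMs minus Control-CMs, which understates changes of low genes, with the standard error (SE) and the Benjamini-Hochberg adjusted p of limma over all tested genes. Of the 77 members, 69 had a mean RPKM of at least 1 and were tested. Adjusted p was below 0.05 for 8 (11.6%), against 30.2% of all 10915 tested genes, of which 15.9% were higher and 14.3% lower. Unadjusted p was below 0.05 for 14 members, against 42.3% of all tested genes. The median log2 fold change was 0.02 over the tested members and 0.02 over all tested genes. It was -0.032 over the members with no minimum RPKM and -0.034 with limma voom, where the median over all genes was 0.03 and 0.04. The members ranged from -0.99 to 0.58, 57 of 69 were under 0.5 in size, and none reached 1. Libraries of the groups did not overlap for 34 of the 69 (49.3%), against 57.9% of all tested genes. Summed over the 5 libraries, the tested members had a median of 520 reads and all tested genes 334.

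The direction of the members depended on the scaling. When RPKM were scaled to library totals alone, the median of all tested genes moved from 0.02 to 0.36 and that of the members from 0.02 to 0.33. In that scaling 24 members were higher and 1 lower, with 42.5% of all genes called, 36.5% higher and 5.96% lower. Summed over the members, scaled RPKM was 507 to 529 in OSKM-CMs and 537 to 546 in Control-CMs. Members described below beyond the rule for named genes were chosen after their values were seen. All directions below are relative to the TMM scaling, and in bulk samples fewer cells of a type and less RNA per cell cannot be told apart.

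**Figure D1:**
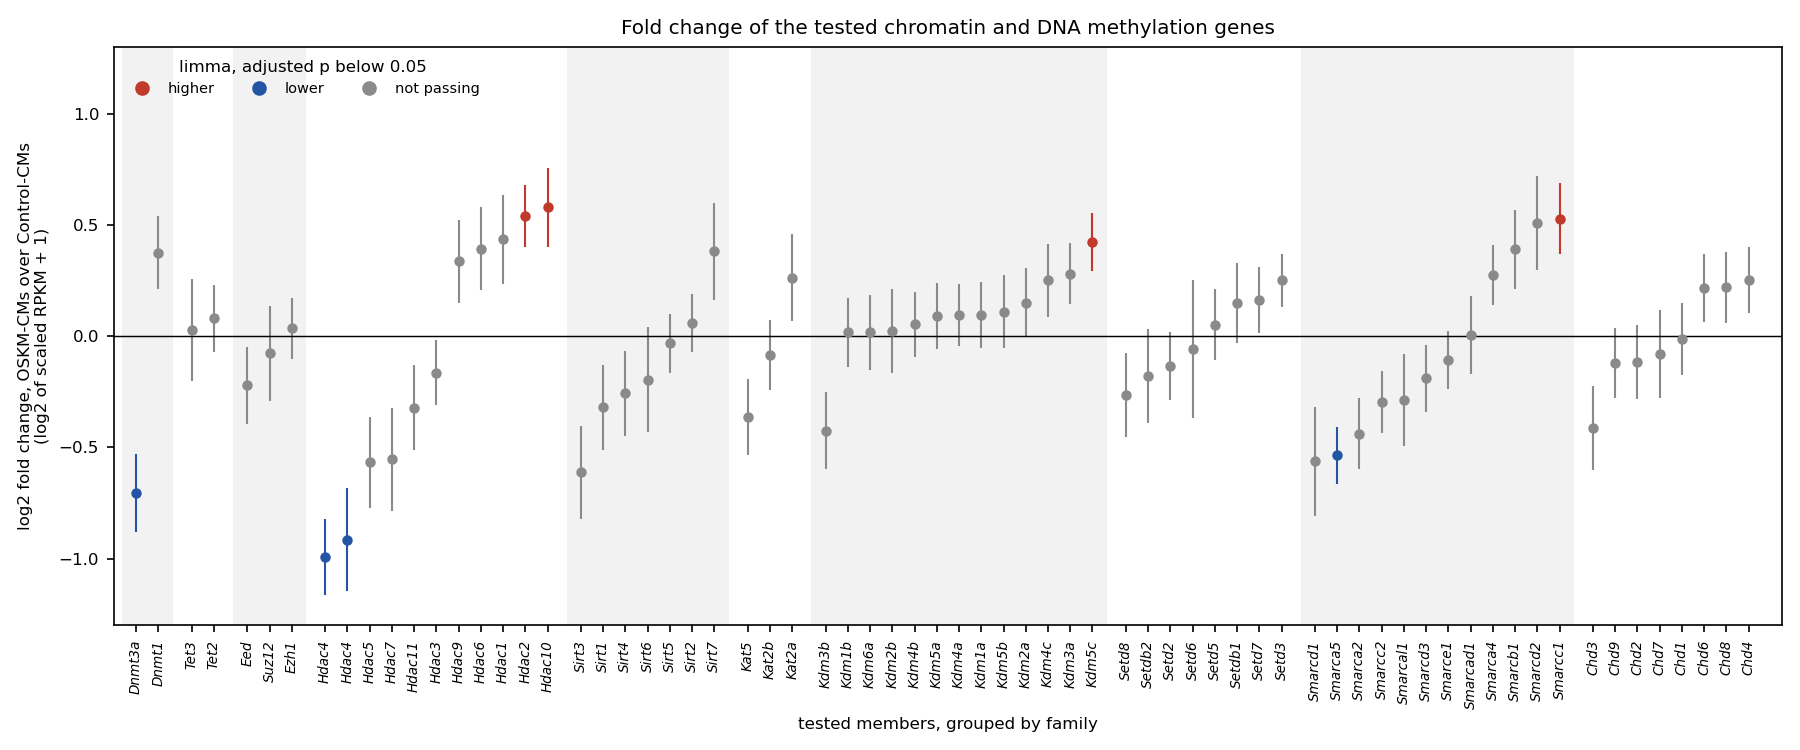
Log2 fold change (OSKM-CMs over Control-CMs, log2 of scaled RPKM plus 1) of the 69 tested members, grouped by family. Bars are SE, red and blue points passed an adjusted p of 0.05 in limma (4 higher, 4 lower), and the points range from -0.99 to 0.58.

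The members that passed were Hdac4 (both entries), Dnmt3a and Smarca5 among those that fell, and Hdac2, Hdac10, Smarcc1 and Kdm5c among those that rose. Their promoter sequence is shown where it helps to compare them, since Myc binds the E-box CACGTG, Oct4 binds the octamer ATGCAAAT, and GGGCGG is the GC box bound by Sp and Klf proteins. Windows are the 250 bases before the gene's start in RefSeq (GRCm38.p6), read 5′ to 3′ on the gene's strand, with matches to any of the 3 motifs on either strand in capitals. None of the motifs contains another, and each was counted separately. Hdac4 (chr1:92180342-92180591, minus strand) is shown as the member with the largest fall, Hdac2 (chr10:36974294-36974543, plus strand) and Smarcc1 (chr9:110131774-110132023, plus strand) as members that rose. The Dnmt3a window (chr12:3891494-3891743, plus strand) is the only one with an E-box among members that passed and had a matched start. It lies at 1 of 3 annotated starts. Hdac10 had no matched start.
Hdac4 promoter: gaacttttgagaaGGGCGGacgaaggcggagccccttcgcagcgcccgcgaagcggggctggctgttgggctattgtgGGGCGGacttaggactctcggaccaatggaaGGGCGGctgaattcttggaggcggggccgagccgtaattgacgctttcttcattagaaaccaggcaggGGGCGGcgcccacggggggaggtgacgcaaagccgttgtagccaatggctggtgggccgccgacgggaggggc
Hdac2 promoter: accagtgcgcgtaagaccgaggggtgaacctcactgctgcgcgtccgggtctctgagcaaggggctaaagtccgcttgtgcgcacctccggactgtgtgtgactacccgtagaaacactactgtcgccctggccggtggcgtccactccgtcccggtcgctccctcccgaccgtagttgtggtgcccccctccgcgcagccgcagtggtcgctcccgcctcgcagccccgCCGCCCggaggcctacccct
Smarcc1 promoter: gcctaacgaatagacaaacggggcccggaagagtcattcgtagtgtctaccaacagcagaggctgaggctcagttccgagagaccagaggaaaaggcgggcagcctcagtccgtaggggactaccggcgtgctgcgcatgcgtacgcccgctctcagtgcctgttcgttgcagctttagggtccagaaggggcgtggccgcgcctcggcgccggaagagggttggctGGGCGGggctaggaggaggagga
Dnmt3a promoter: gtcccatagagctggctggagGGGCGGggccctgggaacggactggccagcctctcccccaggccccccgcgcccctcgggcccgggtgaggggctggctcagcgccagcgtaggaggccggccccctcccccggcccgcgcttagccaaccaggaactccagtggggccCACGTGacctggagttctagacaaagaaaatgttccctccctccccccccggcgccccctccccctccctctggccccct
The Hdac4 window held 4 GC boxes, Hdac2 and Smarcc1 held 1 each, and the Dnmt3a window shown held 1 GC box and 1 E-box. The other 2 Dnmt3a windows held 5 and 4 GC boxes and no E-box. Of the windows not shown, Smarca5, which fell, held 1 GC box, and Kdm5c, which rose, held no match to any of the 3 motifs. RefSeq starts matched 61 of the 76 symbols, with 83 windows, some of which overlap within a gene. An E-box was in 6.02% of the member windows and 6.02% of all 32851 windows. The octamer, searched as ATGCAAAT and ATTTGCAT, was in 2.41% (2 of 83 windows) against 1.6%. The GC box, searched as GGGCGG and CCGCCC, was in 59.0% against 32.7%. All windows together cover 27025 symbols, more than the 12446 listed genes, and no share over listed genes alone was computed. These matches describe letters and not bound sites, and no binding was measured here.

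Among the histone deacetylases, the class IIa gene Hdac4 held the 2 largest falls of all tested members. Of 11 tested Hdac entries, 2 rose and 2 fell (36.4% called, against 30.2% of all tested genes), and both falls were entries of the 1 gene Hdac4. Hdac4, a class IIa deacetylase that represses MEF2 in muscle, had 6.57 and 7.99 scaled RPKM in Control-CMs replicates 3 and 5. It had 3.68, 2.76 and 3.05 in OSKM-CMs replicates 1, 2 and 3. Both controls were above every OSKM-CMs library, and the means were 7.28 ± 1.0 (SD, n = 2) and 3.16 ± 0.469 (SD, n = 3), 2.30-fold apart. The log2 fold change was -0.99 ± 0.17 (SE, adjusted p = 0.00472). It was the only member whose call remained with each library left out in turn, with adjusted p between 0.0124 and 0.0342, and it also passed with library totals alone (-0.64, adjusted p = 0.0179).

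The second Hdac4 entry, shorter at 2391 bases against 4064, had 3.09 and 3.12 scaled RPKM in Control-CMs and 1.36, 1.61 and 0.682 in OSKM-CMs. Its groups did not overlap either, and its log2 fold change was -0.91 ± 0.23 (SE, adjusted p = 0.0214). It rested on 23 and 23 reads in the controls and 10, 12 and 5 in OSKM-CMs. How reads were split between the entries is not given in the sources used here, so they are not independent. An antisense gene, Gm26720, also shares up to 132 exon bases with Hdac4 in the GENCODE M21 annotation, and the strand setting of the counting is not given. The call of the second entry was lost when OSKM-CMs replicate 1 (adjusted p = 0.0520), Control-CMs replicate 3 (0.0771) or Control-CMs replicate 5 (0.0815) was left out. With library totals alone it was -0.64 (adjusted p = 0.0603).

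The other class IIa genes were chosen for description after their values were seen. Hdac5, which like Hdac4 shuttles out of the nucleus on phosphorylation, had 9.87 and 12.2 scaled RPKM in Control-CMs and 7.83, 8.45 and 5.33 in OSKM-CMs. All OSKM-CMs libraries were below both controls, but the log2 fold change of -0.57 ± 0.20 (SE) did not pass (adjusted p = 0.0717). Hdac7 had 2.75 and 3.07 against 2.36, 1.11 and 1.66, also without overlap, at -0.55 ± 0.23 (SE, adjusted p = 0.110). Hdac9 stood on the other side, with 4.43 and 5.05 in Control-CMs and 5.93, 7.79 and 5.21 in OSKM-CMs, at 0.34 ± 0.19 (SE, adjusted p = 0.210). Summed over the 5 class IIa entries, scaled RPKM was 26.7 to 31.4 in Control-CMs and 15.9 to 21.7 in OSKM-CMs. With limma voom, which weights the recovered reads and does not add 1 to each value, Hdac5 (-0.63, adjusted p = 0.0202) and Hdac7 (-0.82, adjusted p = 0.0459) passed as well. With library totals alone, Hdac4 under the longer entry was the only one of the 5 that was lower, and Hdac9 was higher.

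Class I deacetylases, the nuclear enzymes of the Sin3, NuRD and CoREST complexes, were led by Hdac2. Hdac2 had 11.2 and 10.8 scaled RPKM in Control-CMs and 15.1, 15.6 and 18.8 in OSKM-CMs. Every OSKM-CMs library was above both controls, and Hdac2 rose 1.5-fold, at 0.54 ± 0.14 (SE, adjusted p = 0.0246). The call was lost without OSKM-CMs replicate 3 (0.45, adjusted p = 0.0734), Control-CMs replicate 3 (adjusted p = 0.0783) or Control-CMs replicate 5 (adjusted p = 0.0963). Hdac1, its close paralogue, had 2.15 and 1.51 against 2.27, 3.08 and 3.14, at 0.44 ± 0.20 (SE, adjusted p = 0.141). Hdac3, the enzyme of the NCoR complexes, had overlapping groups at -0.16 ± 0.15 (SE, adjusted p = 0.430). Hdac8 had a mean RPKM under 1 and was not tested, with 9 and 5 reads in Control-CMs and 15, 10 and 18 in OSKM-CMs.

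Hdac10, a class IIb enzyme known as a polyamine deacetylase, had 2.19 and 2.70 scaled RPKM in Control-CMs and 3.67, 4.85 and 3.97 in OSKM-CMs. The groups did not overlap, and Hdac10 rose 1.70-fold, at 0.58 ± 0.18 (SE, adjusted p = 0.0432). Of the 8 calls it had the highest adjusted p. It was lost with each library left out in turn, without OSKM-CMs replicates 1, 2 and 3 (adjusted p = 0.0728, 0.108 and 0.0947) and Control-CMs replicates 3 and 5 (0.166 and 0.0722), and with limma voom (0.0554). Hdac6, the tubulin deacetylase of the same class, had 2.61 and 3.25 against 3.93, 3.60 and 5.01, at 0.39 ± 0.19 (SE, adjusted p = 0.148). Hdac11, the class IV enzyme, was at -0.32 ± 0.19 (SE, adjusted p = 0.242).

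**Figure D2:**
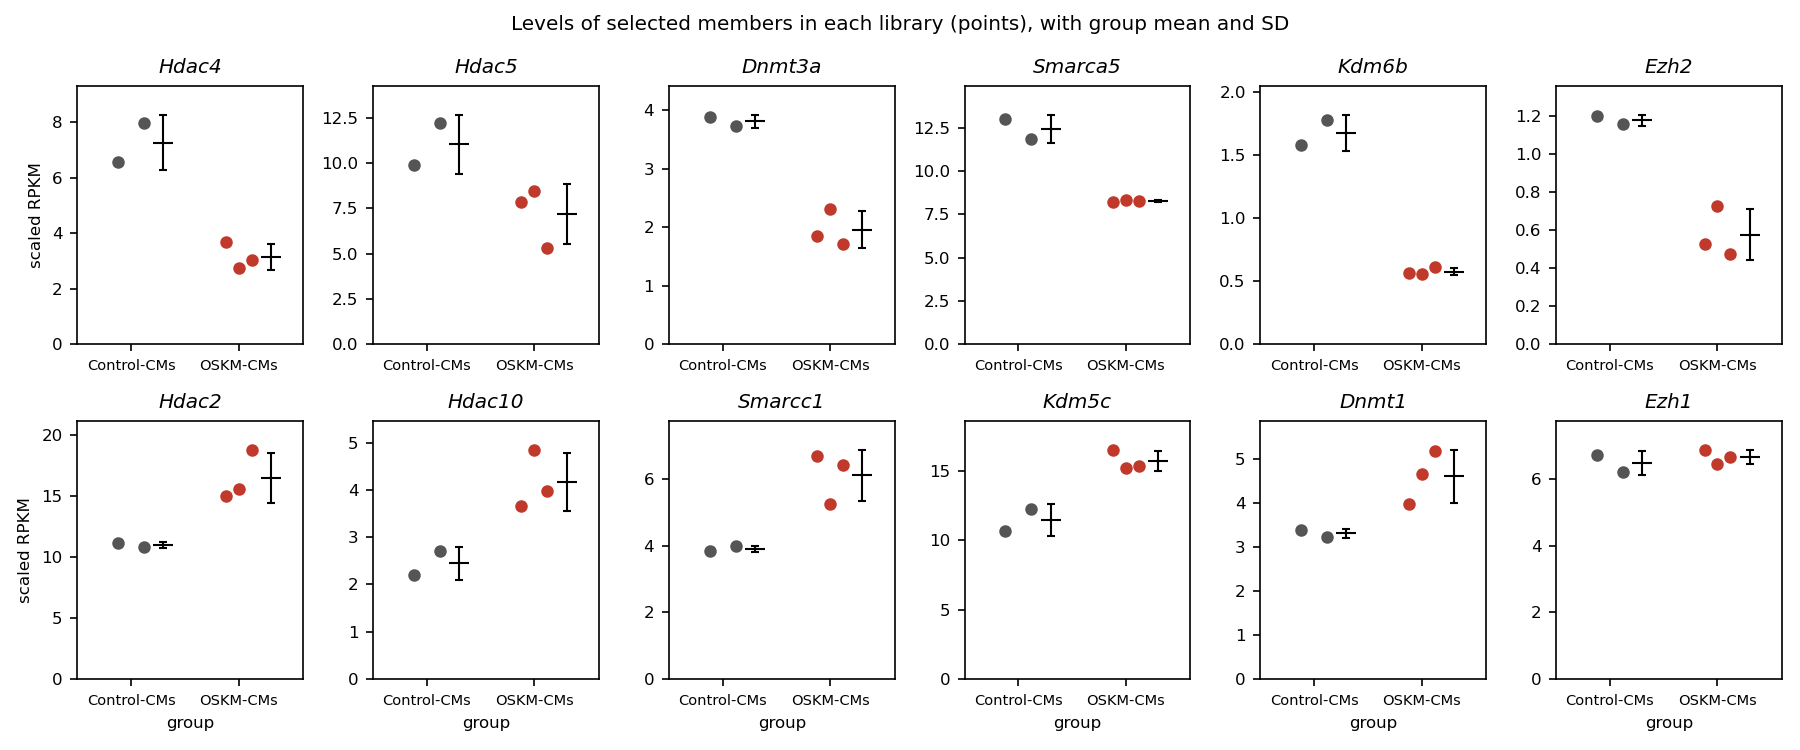
Scaled RPKM of 12 members (y axis, from 0) in each library (points) of Control-CMs (n = 2) and OSKM-CMs (n = 3), with group mean and SD as bars. Upper panels show members with OSKM-CMs below Control-CMs and lower panels members with OSKM-CMs above, except Ezh1 (last panel), whose groups overlapped. Hdac4 is the longer entry.

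None of the 7 sirtuins, the NAD-dependent deacylases, passed. Sirt3, the main mitochondrial deacetylase and the most abundant sirtuin here, had 29.6 and 23.5 scaled RPKM in Control-CMs and 15.8, 22.2 and 13.8 in OSKM-CMs. The groups did not overlap, with means of 26.6 ± 4.36 (SD, n = 2) and 17.2 ± 4.37 (SD, n = 3), and the log2 fold change was -0.61 ± 0.21 (SE, adjusted p = 0.0620). When OSKM-CMs replicate 2 was left out Sirt3 passed (-0.80, adjusted p = 0.0135), as it did in limma voom (-0.64, adjusted p = 0.0287), while library totals alone gave -0.21 (adjusted p = 0.465). Exons of Sirt3 also overlap Psmd13 and Ric8a on the other strand. Sirt5, the mitochondrial desuccinylase, was at 17.1 ± 2.23 in Control-CMs and 16.6 ± 0.693 in OSKM-CMs (SD, n = 2 and 3), at -0.03 ± 0.13 (SE, adjusted p = 0.876). Sirt1, the nuclear sirtuin, was at -0.32 ± 0.19 (SE, adjusted p = 0.245) and the remaining 4 sirtuins lay between -0.26 and 0.38.

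The de novo DNA methyltransferase Dnmt3a fell, while the maintenance enzyme Dnmt1 did not pass. Dnmt3a had 3.89 and 3.73 scaled RPKM in Control-CMs and 1.86, 2.32 and 1.71 in OSKM-CMs. The OSKM-CMs libraries were all below both controls, 1.94-fold in the means, at -0.71 ± 0.18 (SE, adjusted p = 0.0204). The call was lost without OSKM-CMs replicate 1 (adjusted p = 0.0666), OSKM-CMs replicate 3 (0.0658), Control-CMs replicate 3 (0.0800) or Control-CMs replicate 5 (0.0688), and with library totals alone (-0.40, adjusted p = 0.121). Dnmt1, which copies methylation to the new strand after replication, had 3.38 and 3.23 in Control-CMs and 3.98, 4.66 and 5.18 in OSKM-CMs. Its groups did not overlap, and the log2 fold change was 0.38 ± 0.16 (SE, adjusted p = 0.124), or 0.70 with library totals alone (adjusted p = 0.0147). The ratio of Dnmt3a to Dnmt1 within a library, which no scaling between libraries can change, was 1.15 and 1.16 in Control-CMs and 0.467, 0.497 and 0.330 in OSKM-CMs. Dnmt3b, the second de novo enzyme, had a mean RPKM under 1, with 6 and 6 reads in Control-CMs and 4, 4 and 1 in OSKM-CMs. Fitted with no minimum it was at -0.22 ± 0.14 (SE, adjusted p = 0.298), and limma voom gave -1.05 (adjusted p = 0.284).

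The Tet dioxygenases, which oxidise methylcytosine, showed no call among the 2 tested. Tet2 had 3.43 and 3.71 scaled RPKM in Control-CMs and 3.85, 3.70 and 3.94 in OSKM-CMs, with overlapping groups, at 0.08 ± 0.15 (SE, adjusted p = 0.717). Tet3 had 0.929 and 1.14 against 1.09, 1.5 and 0.707, at 0.03 ± 0.23 (SE, adjusted p = 0.939). Tet1 had a mean RPKM under 1 and was not tested in the main test. It had 1.62 and 1.08 scaled RPKM in Control-CMs and 0.752, 0.829 and 0.510 in OSKM-CMs, on 74 and 49 against 34, 38 and 23 reads. Fitted with no minimum, Tet1 was at -0.47 ± 0.19 (SE, adjusted p = 0.106), and limma voom gave -0.94 (adjusted p = 0.0181).

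The core of Polycomb repressive complex 2, which methylates lysine 27 of histone H3, had no call among its 3 tested subunits. Ezh1, the catalytic subunit known from non-dividing cells, had 6.72 and 6.21 scaled RPKM in Control-CMs and 6.88, 6.44 and 6.64 in OSKM-CMs, at 0.04 ± 0.14 (SE, adjusted p = 0.864). Eed, which reads the mark, had 7.14 and 10.3 against 7.66, 7.12 and 6.95, at -0.22 ± 0.17 (SE, adjusted p = 0.373). Suz12, which the complex needs to assemble, had 4.57 and 6.58 against 5.47, 6.18 and 4.04, at -0.08 ± 0.21 (SE, adjusted p = 0.817). The groups overlapped for all 3, and with library totals alone Eed (0.15) and Suz12 (0.28) turned positive without passing. Eed was at -0.46 without Control-CMs replicate 3 (adjusted p = 0.106) and 0.02 without Control-CMs replicate 5 (adjusted p = 0.956). Suz12 ranged from -0.30 to 0.15 over the 5 libraries left out, without passing. Ezh2, the catalytic subunit known from dividing cells, had a mean RPKM under 1. It had 1.20 and 1.16 scaled RPKM in Control-CMs and 0.526, 0.727 and 0.475 in OSKM-CMs, on 23 and 22 against 10, 14 and 9 reads, with no overlap. Fitted with no minimum it was at -0.47 ± 0.16 (SE, adjusted p = 0.0680), and limma voom gave -1.02 (adjusted p = 0.0485). In the same libraries 13 of 19 tested dividing cell genes were higher and none lower, against 15.9% of all tested genes higher and 14.3% lower. Their median log2 fold change was 1.04. Some reached the minimum RPKM only through OSKM-CMs, such as Anln with 4 and 0 reads in Control-CMs and 41, 51 and 43 in OSKM-CMs. With no minimum, 15 of 23 were higher and none lower, with 27.5% of all genes called. Any relation to Ezh2 was not tested.

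Of 13 tested lysine demethylases 1 rose and none fell (7.69% called, against 30.2% of all tested genes). Kdm5c, an X-linked enzyme that removes methyl groups from lysine 4 of histone H3 and the most abundant Kdm member, had 10.7 and 12.3 scaled RPKM in Control-CMs and 16.6, 15.2 and 15.3 in OSKM-CMs. The groups did not overlap, and Kdm5c rose 1.37-fold, at 0.42 ± 0.13 (SE, adjusted p = 0.0431). The call was lost with each library left out in turn, without OSKM-CMs replicates 1, 2 and 3 (adjusted p = 0.122, 0.0661 and 0.0882) and Control-CMs replicates 3 and 5 (0.188 and 0.0669), and with neither trend nor robust in limma (0.0607). Its paralogues Kdm5a and Kdm5b were at 0.09 and 0.11 and did not pass. The 12 other tested Kdm members lay between -0.43 and 0.28 and did not pass.

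Kdm6b, chosen for description after its values were seen, removes methyl groups from lysine 27 of histone H3 and stayed under the minimum RPKM of 1. It had 1.58 and 1.78 scaled RPKM in Control-CMs and 0.562, 0.555 and 0.612 in OSKM-CMs, on 34 and 38 against 12, 12 and 13 reads. All OSKM-CMs libraries were below both controls, 2.91-fold in the means. Fitted with no minimum, where 27.5% of all genes were called, Kdm6b fell by 0.76 ± 0.16 on the log2 scale (SE, adjusted p = 0.0115), and limma voom gave -1.50 (adjusted p = 0.00255). It was the only member added to the calls without the minimum. With an OSKM-CMs library left out it reached the minimum RPKM in 3 fits. Its limma adjusted p there was between 0.0447 and 0.0634, so it did not pass in all of them. The antisense gene Kdm6bos shares up to 149 exon bases with it. Kdm6a, its X-linked paralogue, had 7.79 and 7.27 against 6.36, 7.73 and 9.03, at 0.02 ± 0.17 (SE, adjusted p = 0.945). Kdm3b, which acts on lysine 9, was at -0.43 ± 0.17 (SE, adjusted p = 0.102) and its paralogue Kdm3a at 0.28 ± 0.14 (SE, adjusted p = 0.163), each with groups that did not overlap.

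None of the 8 tested Setd genes and none of the 3 Kat genes passed. Setd8, which places the first methyl group on lysine 20 of histone H4, had the highest level of all members averaged over the 5 libraries, with 47.3 and 41.3 scaled RPKM in Control-CMs and 30.1, 46.9 and 34.8 in OSKM-CMs. These groups overlapped, at -0.26 ± 0.19 (SE, adjusted p = 0.330). Kat2b (PCAF), a histone acetyltransferase which was above Setd8 in the OSKM-CMs mean (38.5 against 37.3), had 43.6 and 37.6 against 43.4, 32.1 and 39.9, at -0.08 ± 0.16 (SE, adjusted p = 0.712). Kat2a and Kat5 were at 0.26 and -0.36. Setd3, known as an actin histidine methyltransferase, had 20.2 and 18.2 against 22.7, 22.2 and 24.2, at 0.25 ± 0.12 (SE, adjusted p = 0.154). Setd1a and Setd1b, catalytic subunits of complexes that methylate lysine 4 of histone H3, and Setd4 were not tested. Setd1a had 23 and 13 reads in Control-CMs and 5, 12 and 8 in OSKM-CMs, Setd1b 17 and 16 against 14, 12 and 5, and Setd4 19 and 5 against 9, 7 and 1.

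Among the 12 Smarc genes, 1 rose and 1 fell (16.7% called, against 30.2% of all tested genes). Smarca5 (SNF2H), the ATPase of ISWI remodellers that space nucleosomes, had 13.0 and 11.8 scaled RPKM in Control-CMs and 8.21, 8.31 and 8.25 in OSKM-CMs. The OSKM-CMs libraries lay close together and below both controls, 1.51-fold in the means, at -0.54 ± 0.13 (SE, adjusted p = 0.0177). Smarca5 shares up to 180 exon bases with Gm45872 on the same strand in GENCODE M21. The call was lost without OSKM-CMs replicate 1 (adjusted p = 0.0574), OSKM-CMs replicate 3 (0.0529) or Control-CMs replicate 3 (0.0875), and with library totals alone (-0.15, adjusted p = 0.430). Smarcc1 (BAF155), a scaffold subunit of the BAF complexes, had 3.84 and 3.97 against 6.68, 5.23 and 6.41. It rose 1.56-fold without overlap, at 0.53 ± 0.16 (SE, adjusted p = 0.0402). That call was lost without OSKM-CMs replicate 1 (adjusted p = 0.129), OSKM-CMs replicate 3 (0.112), Control-CMs replicate 3 (0.120) or Control-CMs replicate 5 (0.104). Smarcc2 (BAF170), the other scaffold and the most abundant Smarc member averaged over the 5 libraries, though below Smarca4 in the OSKM-CMs mean (13.0 against 14.1), had 16.1 and 16.0 in Control-CMs and 14.6, 11.7 and 12.6 in OSKM-CMs. Its groups did not overlap, at -0.29 ± 0.14 (SE, adjusted p = 0.149), or 0.10 with library totals alone.

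The other Smarc members named here were chosen after their values were seen. Smarca2 (BRM), an ATPase of the BAF complexes, had 10.8 and 11 scaled RPKM in Control-CMs and 9.17, 7.64 and 6.70 in OSKM-CMs, at -0.44 ± 0.16 (SE, adjusted p = 0.0727). Limma voom called it lower (-0.49, adjusted p = 0.0269). Smarca4 (BRG1), the alternative ATPase, had 11.9 and 11 against 12.7, 14.7 and 14.8, at 0.27 ± 0.13 (SE, adjusted p = 0.163). The groups of both ATPases did not overlap, on opposite sides. Smarcd1, Smarcd2 and Smarcd3, alternative BAF60 subunits, were at -0.56, 0.51 and -0.19, and none passed.

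No chromodomain helicase passed among the 8 tested. Chd4, the ATPase of the NuRD complex and the most abundant Chd member, had 24.4 and 27.0 scaled RPKM in Control-CMs and 36.4, 28.0 and 28.6 in OSKM-CMs. The groups did not overlap, at 0.25 ± 0.15 (SE, adjusted p = 0.242), and library totals alone gave 0.66 (adjusted p = 0.00837). Chd3, which takes the same place in NuRD, had 2.25 and 2.00 against 1.35, 1.6 and 1.12, at -0.41 ± 0.19 (SE, adjusted p = 0.137). The other Chd members lay between -0.12 and 0.22.

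Ratios of related members within a library do not depend on the scaling between libraries, and 24 pairs of paralogues or alternative subunits were compared without a test. The pairs were not part of the rule for named genes. The groups did not overlap for 12 of them. No such share was computed over other gene pairs, so the count is a description. For single genes the groups did not overlap for 49.3% of tested members and 57.9% of all tested genes. Smarcc2 over Smarcc1 was 4.19 and 4.04 in Control-CMs and 2.19, 2.23 and 1.97 in OSKM-CMs. Smarca2 over Smarca4 was 0.908 and 1.0 against 0.724, 0.520 and 0.452. Ezh1 over Ezh2 was 5.61 and 5.37 against 13.1, 8.86 and 14.0. Kdm6a over Kdm6b was 4.94 and 4.08 against 11.3, 13.9 and 14.8. In these 4 pairs the OSKM-CMs libraries all lay to one side of the controls. Hdac9 over Hdac5 was 0.449 and 0.414 against 0.758, 0.922 and 0.978, and Chd4 over Chd3 was 10.9 and 13.5 against 27.0, 17.5 and 25.4. Tet2 over Tet3 overlapped, at 3.69 and 3.24 against 3.55, 2.46 and 5.57, as did Hdac2 over Hdac1, at 5.18 and 7.16 against 6.63, 5.08 and 6.01.

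**Figure D3:**
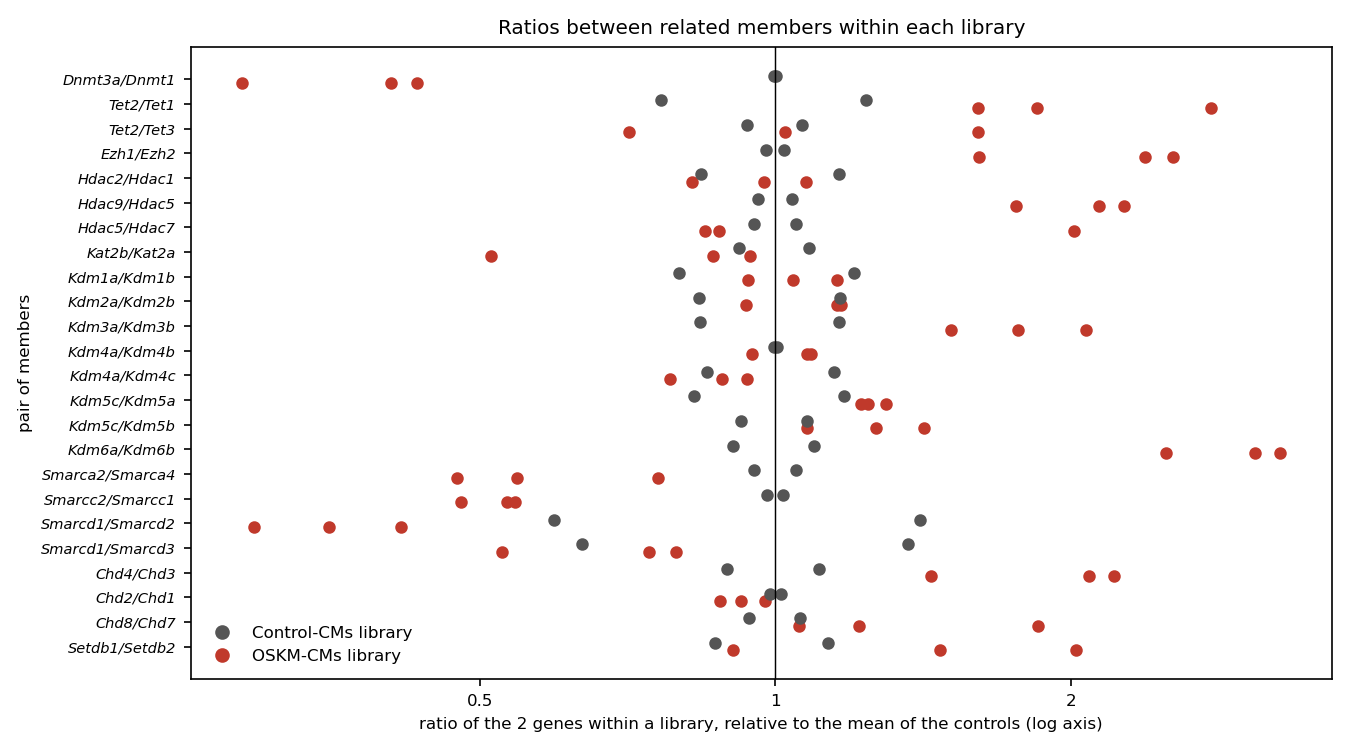
Ratio of scaled RPKM of 2 members within each library, divided by the mean ratio of the Control-CMs libraries (log axis), for 24 pairs. Grey points are Control-CMs libraries and red points OSKM-CMs libraries. The groups do not overlap in 12 pairs, among them Dnmt3a/Dnmt1, Kdm6a/Kdm6b and Smarcc2/Smarcc1. The share over other gene pairs was not computed.

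Partner genes and other chromatin enzymes were counted from lists that do not include the members. Their counts stand against 30.2% of all tested genes called, and like those of the members they depended on the scaling. With library totals alone, 36.5% of all 10915 tested genes were higher and 5.96% (650) lower. Each of the 5 lists below then had 1 or 0 lower, with medians between 0.18 and 0.29 against 0.36 over all tested genes. Of 24 tested Polycomb partners, 2 rose and 5 fell, with a median log2 fold change of 0.01, or 8 higher and 0 lower with library totals alone. Pcgf6 (1.04 ± 0.29 SE, adjusted p = 0.0323) and Pcgf1 (0.90 ± 0.23 SE, adjusted p = 0.0226), which define variant forms of Polycomb complex 1, rose. Pcgf6 had 0.988 ± 0.722 scaled RPKM in Control-CMs (SD) and reached the minimum RPKM of 1 only through OSKM-CMs. Cbx7 (-0.65 ± 0.19 SE, adjusted p = 0.0364), a reader of the lysine 27 mark, and Phf1 (-0.54 ± 0.17 SE, adjusted p = 0.0468), a partner of complex 2, fell, and neither passed with library totals alone (adjusted p = 0.198 and 0.395). The list of other histone methyltransferases and their partners also held demethylases such as Phf2. Of its 37 tested genes, 5 rose and 6 fell (median -0.16), or 13 higher and 1 lower with library totals alone (median 0.19). Men1, the menin subunit of MLL complexes, went from 2.01 ± 0.582 scaled RPKM in Control-CMs to 7.85 ± 0.637 in OSKM-CMs (SD), at 1.57 ± 0.18 (SE, adjusted p = 0.000864). Prmt2, an arginine methyltransferase, rose (0.98, adjusted p = 0.00259), while the demethylase Phf2 (-0.90, adjusted p = 0.00749) and Dot1l (-0.71, adjusted p = 0.0255), which methylates lysine 79 of histone H3, fell. With library totals alone the adjusted p of Dot1l was 0.121.

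Of 28 other acetyltransferases and readers of acetyl-lysine, 2 rose and 2 fell (median -0.15), or 7 higher and 0 lower with library totals alone. Myst4, an acetyltransferase also called Kat6b, rose (0.74, adjusted p = 0.00895), as did the coactivator Ncoa2 (0.54, adjusted p = 0.0491). Ncoa3 (-0.69, adjusted p = 0.0125) and Crebbp (-0.47, adjusted p = 0.0491), the CBP acetyltransferase, fell, and neither passed with library totals alone (adjusted p = 0.123 and 0.583). Of 25 partners of the deacetylases, 1 rose and 4 fell (median -0.10), or 7 higher and 0 lower with library totals alone. They included Gatad2a of NuRD at 0.71 (adjusted p = 0.00794), Sap30l of Sin3 at -1.0 (adjusted p = 0.00797) and Mta1 of NuRD at -0.60 (adjusted p = 0.0414). With library totals alone neither Sap30l (adjusted p = 0.0601) nor Mta1 (0.324) passed. Of 35 other remodeller subunits, 2 rose and 1 fell (median -0.08), or 8 higher and 0 lower with library totals alone. Baz1a, the ACF1 partner of Smarca5, went from 1.02 ± 0.218 to 5.09 ± 0.193 scaled RPKM (SD), at 1.6 ± 0.17 (SE, adjusted p = 0.000625), opposite to Smarca5 itself. In Control-CMs Baz1a lay near the minimum RPKM of 1, and its place in the test rested on the OSKM-CMs libraries, where it was high. Ruvbl1, an ATPase shared by INO80 and TIP60 complexes, rose (0.85, adjusted p = 0.0107), and Phf10 of the PBAF complex fell (-0.66, adjusted p = 0.0181), though not with library totals alone (adjusted p = 0.181).

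**Figure D4:**
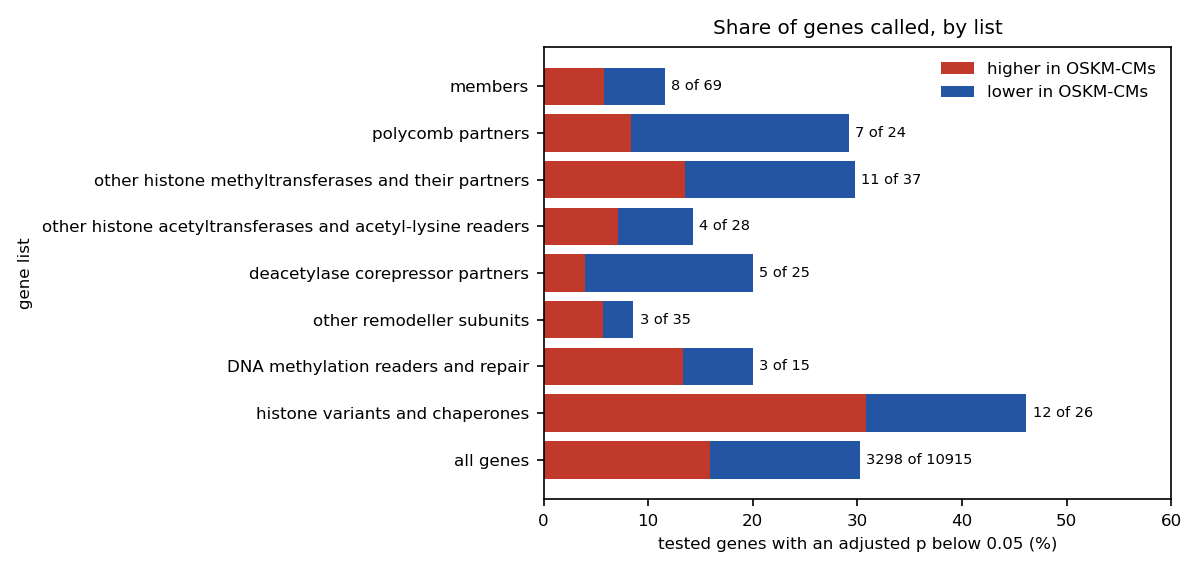
Share of tested genes with an adjusted p below 0.05 in limma (x axis, %), split into higher (red) and lower (blue) in OSKM-CMs, for the members, 7 partner lists and all genes. Counts stand beside the bars: 8 of 69 members and 3298 of 10915 genes were called.

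Genes of dividing cells and markers of other cell types also differed between the groups, in part. Summed scaled RPKM of the dividing cell genes was 48.3 to 69.9 in OSKM-CMs and 30.6 to 32.5 in Control-CMs, and 8 of the 23 listed had 0 reads in at least 1 library. The counts of markers stand against 30.2% of all tested genes called, 15.9% higher and 14.3% lower. Of the cardiomyocyte markers, 11 of 12 fell, with a median log2 fold change of -1.29. Of 11 fibroblast markers 6 rose and none fell, with sums of 128 to 273 in OSKM-CMs and 73.2 to 156 in Control-CMs. Fn1 (8 and 23 reads in Control-CMs) and Col1a1 (23 and 13) reached the minimum RPKM only through OSKM-CMs. With no minimum, 6 fibroblast markers were higher and none lower, with 27.5% of all genes called. Of 12 endothelial markers 3 fell, with sums of 119 to 257 against 350 to 405. OSKM-CMs replicate 2 had the lowest sum of both lists in its group. Of 10 smooth muscle and pericyte markers 3 rose and 1 fell, with sums of 265 to 404 against 226 to 232. None of 5 tested macrophage and leukocyte markers passed, with sums of 8.20 to 40.6 against 13.1 to 53.9, and Ptprc had 0 reads in OSKM-CMs replicate 2. With library totals alone, cardiomyocyte markers were 1 higher and 8 lower, fibroblast 6 and 0, endothelial 0 and 1, smooth muscle and pericyte 3 and 1. In that scaling 36.5% of all tested genes were higher and 5.96% lower. Limma voom gave 0 and 11, 2 and 0, 0 and 6, and 2 and 1 in the same order. It called 15.2% of all genes in each direction. The part of dividing cells and of these cell types in the results on the members was not tested.

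In limma voom, with all 77 members tested, 3 were higher and 12 lower, against 30.4% of all genes called, 15.2% in each direction. The lower ones comprised the 4 called in the main test and Hdac5, Hdac7, Kdm3b, Kdm6b, Ezh2, Sirt3, Smarca2 and Tet1. In the authors' deposited table, an FDR below 0.05 was listed for 12 members, 3 higher and 9 lower, against 31.8% of all genes (16.4% higher and 15.4% lower), and 7 of the 8 members called here were among them. Exon overlap limits single genes: 24 of the 75 member symbols found in GENCODE M21 share exon bases with another gene, on either strand.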

How the data were processed

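Bulk RNA libraries of OSKM-CMs (3) and Control-CMs (2) were compared. STAR 2.5.3, HTSeq, Trimmomatic, FastQC and CASAVA 1.8.2 and the build mm9 are named, with no roles, per the submitters' processing notes; the annotation and strand setting are not given in the sources used here. The authors deposited RPKM per gene and library, a unit inferred from the values. Log2 columns for the fold change and abundance were deposited too. The authors' likelihood-ratio score and p-value with FDR, per the file headers, were used only where named. Whole reads were recovered from the RPKM (100% of 12446 genes, within 0.0001 reads) and gave TMM factors (30% of log ratios and 5% of abundances trimmed). For 440 genes a factor common to all libraries was settled from whole gene lengths or the authors' average abundance. The main test, on log2(scaled RPKM + 1), used limma 3.58.1 in R 4.3.3 (trend and robust empirical Bayes) and genes whose mean RPKM reached 1. The test is 2-sided, with Benjamini-Hochberg adjustment over all 10915 genes at 0.05. Reading and fit were tested on simulated data.

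The members and lists were chosen with earlier results of these data known. Named members were the Dnmt, Tet and core Polycomb genes, calls of at least 1 in log2 size (none), and per family the 2 largest called rises and falls and the highest level; from each partner list, the 2 largest called rises and falls. All other members described were chosen after their values were seen. Alternatives were pseudocounts of 0.1 and 5, no minimum RPKM and a minimum of 5, library totals, median-of-ratios scaling, limma voom, a fit with neither trend nor robust, and each library left out.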

Additional observations from a re-analysis of the deposited data

How the results depend on the processing

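The counts of members called kept within 1.5 times of 4 higher and 4 lower with pseudocounts of 0.1 and 5, median-of-ratios scaling, no minimum RPKM, and neither trend nor robust. A minimum RPKM of 5 left 1 lower, with 38 members tested. Library totals alone gave 24 higher and 1 lower, and limma voom gave 12 lower. Leaving out each library in turn gave 0 to 2 higher and 1 to 6 lower; the remaining library of a control group left with 1 was assumed to vary like the OSKM-CMs libraries. The median log2 fold change of the members, 0.02, was -0.032 with no minimum RPKM, -0.034 with limma voom and 0.33 with library totals alone. Of 247 alternative values of single members, 197 kept their direction and side of the threshold, 32 no longer passed, 6 newly passed and 12 that had not passed changed sign or size, and no call changed sign. All values that no longer passed came from the 8 members called in the main test, which supplied only part of the 247. Fits whose minimum RPKM left a called member out gave no value for it. Genes with few reads limit the result: 8 members had a mean RPKM under 1. No paired analysis was possible because replicate 3 is the only number found in both groups.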

Other observations

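Of 26 tested histone variants and chaperones, which carry and exchange histones, 8 rose and 4 fell, against 30.2% of all tested genes called, with a median log2 fold change of 0.05. With library totals alone 13 were higher and 1 lower (median 0.42), with 36.5% of all tested genes higher and 5.96% lower. Npm1, a nucleolar histone chaperone, went from 46.8 ± 4.62 scaled RPKM in Control-CMs to 133.9 ± 3.06 in OSKM-CMs (SD, n = 2 and 3), at 1.5 ± 0.11 (SE, limma adjusted p = 0.000189). Ubn1, a partner of the HIRA chaperone, went from 5.52 ± 0.744 to 12.3 ± 0.585 (SD), at 1.03 ± 0.14 (SE, limma adjusted p = 0.00181). H2afv, a histone H2A.Z variant, fell from 24.8 ± 3.94 to 11.6 ± 3.23 (SD), at -1.06 ± 0.22 (SE, limma adjusted p = 0.0102). Asf1a, a chaperone of histones H3 and H4, fell as well (-0.59, limma adjusted p = 0.0219), though not with library totals alone (-0.21, limma adjusted p = 0.304).

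Of 15 tested readers of DNA methylation and repair genes, 2 rose and 1 fell, against 30.2% of all tested genes called. Their median log2 fold change was -0.11. With library totals alone 6 were higher and 1 lower, with 36.5% of all tested genes higher and 5.96% lower. Gadd45g and Gadd45a, growth-arrest factors linked to DNA demethylation, went in opposite directions. Gadd45b, also on the list, was not among the calls. Gadd45g went from 23.4 ± 5.82 scaled RPKM in Control-CMs to 63.3 ± 8.36 in OSKM-CMs (SD), at 1.41 ± 0.18 (SE, limma adjusted p = 0.00148). Gadd45a fell from 6.5 ± 1.12 to 1.66 ± 0.373 (SD), at -1.5 ± 0.20 (SE, limma adjusted p = 0.00154). Apex1, an enzyme of base excision repair, rose (0.98, limma adjusted p = 0.0358). The directions of Gadd45g, Gadd45a and Apex1 were the same with library totals alone.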
